A study of Rattus norvegicus with 18 samples.

Results

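The imprinted growth genes of the rat liver were followed across birth: Igf2, Igf2r, Dlk1, Cdkn1c, Peg3, Peg10, Mest, Plagl1 and Grb10. These 9 genes were taken by symbol from the array's annotation, where a gene with several transcript clusters (probe sets that cover a whole gene) is read from its brightest. All 9 were found, each with 1 transcript cluster, among 18926 genes measured. The arrays were Affymetrix Rat Transcriptome 1.0, hybridised with liver RNA of Sprague Dawley rats, 3 arrays at each of 6 ages. E21 denotes fetuses at term, on embryonic day 21, delivered by C-section and decapitated before they took a breath. Newborns were sampled 30 min, 4 h and 12 h after birth and at 1 and 7 days of age, and no genotype or drug set the groups apart. The design gives 3 dams per age, so the p-values measure the spread between litters and arrays. The number of pups per sample and their sex were not given. Values are log2 of the deposited intensity, 1 log2 unit being a doubling of that intensity.

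Imprinted genes are expressed mainly from the copy inherited from 1 parent. In mouse, Igf2, Dlk1, Peg3, Peg10, Mest and Plagl1 are expressed from the paternal copy, and Igf2r, Cdkn1c and Grb10 from the maternal copy in most fetal tissues. Many of them act on fetal growth, with IGF2 as the growth factor at the centre, and several are silenced in liver and other organs of rodents after birth. The arrays read the RNA of both copies together, so they carry no measure of imprinting itself.

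Start-site sequence was available for 8 of the 9 genes in 9 windows (RefSeq, build GRCr8, 250 bases before to 50 bases after the start), Igf2 having 2 windows. Promoters are shown for the genes whose RNA moved most and for which a window was found. Capitals mark a match to 1 of 4 motifs searched on both strands: the cAMP response element TGACGTCA, the TATA sequence TATAA, the E-box CACGTG and the PLAGL1 palindrome GGGGCCCC. The searched motifs did not overlap each other in these windows.
Dlk1, chr6:134192347-134192646, plus strand: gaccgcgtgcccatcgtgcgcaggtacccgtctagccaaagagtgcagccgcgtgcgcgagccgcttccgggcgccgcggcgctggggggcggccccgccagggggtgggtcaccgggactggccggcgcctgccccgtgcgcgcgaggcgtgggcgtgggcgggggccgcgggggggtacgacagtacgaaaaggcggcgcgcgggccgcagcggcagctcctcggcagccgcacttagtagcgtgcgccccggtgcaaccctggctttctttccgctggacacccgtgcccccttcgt
Grb10, chr14:90816338-90816637, minus strand: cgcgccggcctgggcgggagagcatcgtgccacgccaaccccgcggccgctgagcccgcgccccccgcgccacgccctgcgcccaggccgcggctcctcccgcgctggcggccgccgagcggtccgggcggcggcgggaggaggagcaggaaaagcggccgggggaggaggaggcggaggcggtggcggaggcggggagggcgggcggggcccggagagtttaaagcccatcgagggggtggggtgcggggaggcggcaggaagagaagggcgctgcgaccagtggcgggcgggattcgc
Peg3, chr1:76130744-76131043, plus strand: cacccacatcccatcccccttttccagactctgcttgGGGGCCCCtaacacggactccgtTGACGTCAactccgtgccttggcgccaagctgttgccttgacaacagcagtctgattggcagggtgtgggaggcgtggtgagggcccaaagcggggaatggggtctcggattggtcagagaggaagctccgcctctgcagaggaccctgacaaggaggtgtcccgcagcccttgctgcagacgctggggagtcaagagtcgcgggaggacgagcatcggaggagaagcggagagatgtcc
Peg10, chr4:33808776-33809075, plus strand: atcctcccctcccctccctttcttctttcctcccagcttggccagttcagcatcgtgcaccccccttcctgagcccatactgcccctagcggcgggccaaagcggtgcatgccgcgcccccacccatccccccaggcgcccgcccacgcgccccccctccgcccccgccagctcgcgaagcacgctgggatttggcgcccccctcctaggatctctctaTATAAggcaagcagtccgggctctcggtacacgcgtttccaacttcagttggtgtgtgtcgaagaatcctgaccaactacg
The Dlk1 window held 45 CpG dinucleotides and the Grb10 window 44, against a median of 7 over 33469 windows of the same length. Fewer CpG were found in 98.3% of windows than in that of Dlk1 and in 98.1% than in that of Grb10, and neither of the pair held a searched motif. The Peg3 window (16 CpG) held GGGGCCCC 213 bases and TGACGTCA 190 bases before the start, motifs found in 0.858% and 1.83% of all windows. The Peg10 window (22 CpG) held TATAA 31 bases before the start, as 26.2% of windows hold it somewhere. CACGTG, present in 6.42% of windows, was matched at 2 places before Igf2r and at 1 before Plagl1. These matches describe the letters of the windows only.

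Over all ages together 5 of the 9 genes passed the moderated F test of limma: Peg3, Dlk1, Cdkn1c, Grb10 and Peg10. Across all genes 31.3% passed the same test. The 5 genes moved in 3 ways. Dlk1, Cdkn1c and Grb10 fell in the days after birth, Peg3 was high at 12 h and 1 day, and Peg10 was high at 4 h on 2 of 3 arrays. Igf2, Igf2r, Mest and Plagl1 did not pass (adjusted p = 0.106, 0.116, 0.0816 and 0.0632). The spread of the 6 age means was 5.18 for Peg10, 4.78 for Dlk1, 3.97 for Cdkn1c, 3.57 for Grb10 and 3.03 for Peg3. It was 1.82 for Igf2r, 1.15 for Plagl1, 0.80 for Mest and 0.46 for Igf2.

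**Figure D1:**
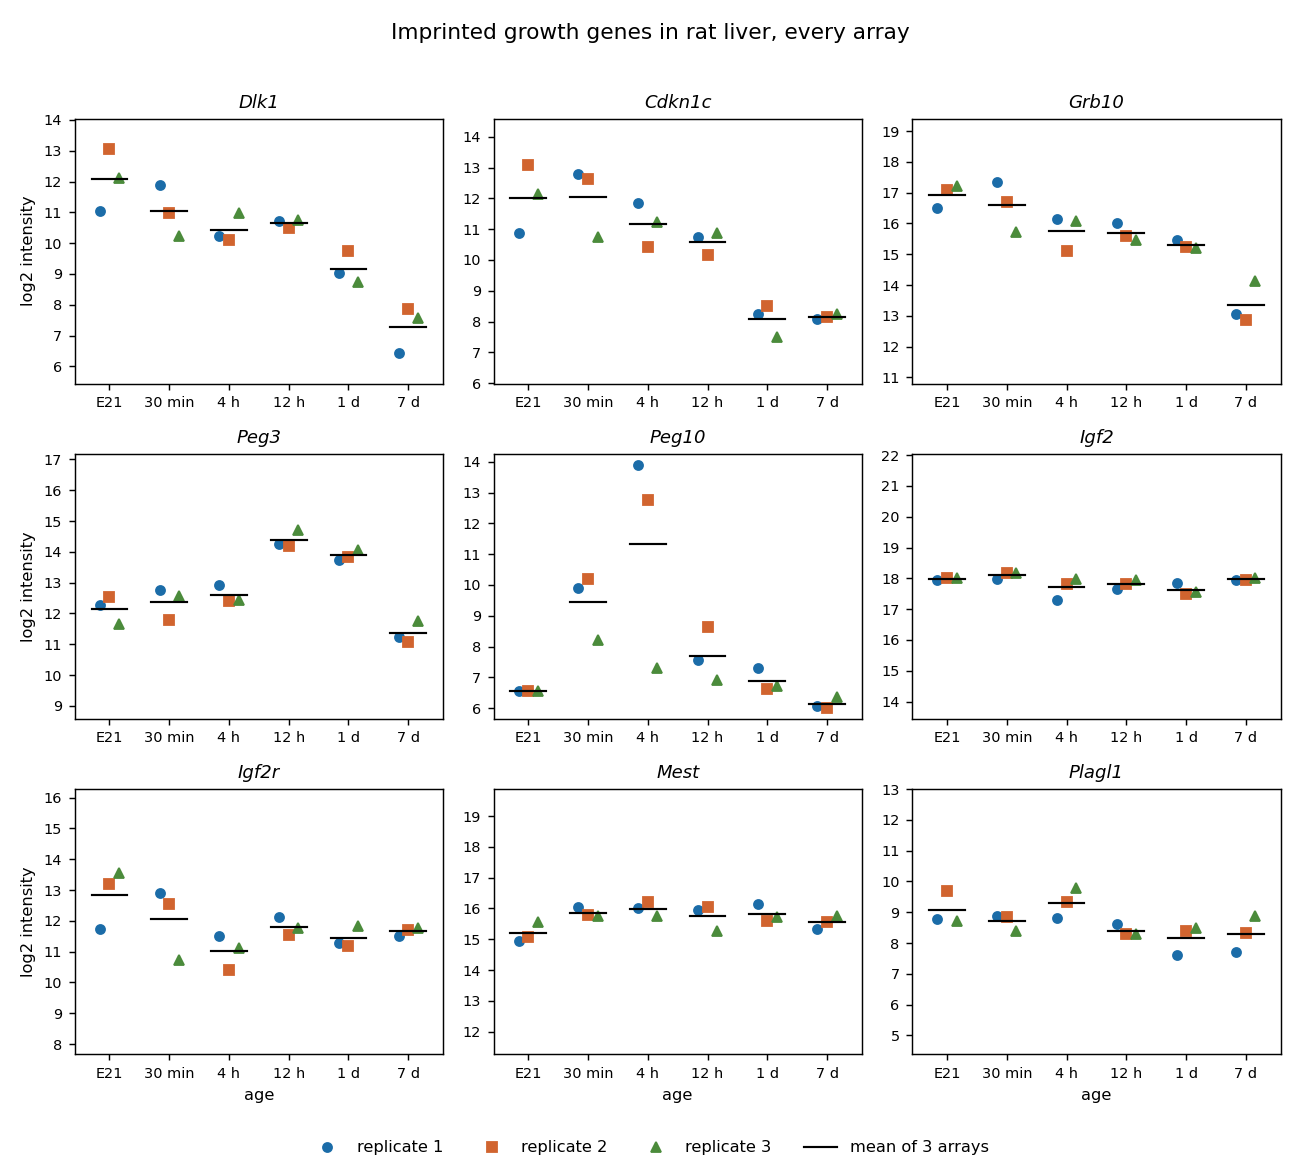
Log2 intensity of the 9 imprinted growth genes on each of the 18 arrays (coloured points, 3 per age) with the age mean (black line), by age from E21 to 7 days, each panel with its own level but the same span of the log2 axis. Dlk1, Cdkn1c and Grb10 descend, Peg3 stands high at 12 h and 1 day, the Peg10 points at 4 h lie between 7.30 and 13.91, and the Igf2 points all lie between 17.31 and 18.17.

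The values behind these tests carry a few limits that touch the members. Array medians over genes lay between 6.28 and 6.39, and a floor of 6.12 was set as the 95th percentile of 684 readings of 38 genes that liver should not express. Intensities ran up to 999969, beyond the 65535 of a 16-bit scanner, and the processing notes do not explain this scale. All 18 Igf2 readings, 8 of Grb10 and 5 of Mest lay above 65535, so the steepness of the scale is least certain for them. On E21 replicate 1 the member reading was the lowest of its age for 6 of the 9 genes, and on 30 min replicate 3 for 7 of 9. It was also lowest for 6 on 7 day replicate 1 and for 5 on 4 h replicate 2, but for 2 on 4 h replicate 3. E21 replicate 1 and 30 min replicate 3 also read high for Pck1, a gluconeogenic enzyme induced by fasting hormones. E21 replicate 1 read 18.06 for Pck1 against 12.87 and 12.48 on the other E21 arrays, and 30 min replicate 3 read 18.15 against 15.41 and 15.75. At 4 h, replicate 3 read 16.71 against 18.51 and 18.39. The part of this difference in the member values was not tested, and changes against E21 or between successive ages are given below also without these 3 arrays, a choice made after values were seen, where a call depends on them. E21 replicate 1 was the lowest of its age for Igf2r, Dlk1, Cdkn1c and Grb10, and 4 h replicate 3 for Peg10. Leaving them out widens those changes against E21 by construction, so a pass without these 3 arrays is no independent support for a change. One 7 day array, replicate 3, carried pancreas RNA, with 17.80 for the chymotrypsinogen gene Ctrb1 against 5.59 and 5.25 on the other 7 day arrays, and it gave the highest 7 day reading for 8 of the 9 genes.

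Igf2 encodes insulin-like growth factor II, the main circulating growth factor of the fetus. It read 17.96, 18.02 and 18 at E21, then 17.97, 18.16 and 18.17 at 30 min and 17.31, 17.83 and 17.97 at 4 h. At 12 h it read 17.64, 17.81 and 17.95, at 1 day 17.86, 17.48 and 17.57, and at 7 days 17.95, 17.96 and 18.01. The 7 day readings overlapped the E21 readings, and the lowest of all 18 was 4 h replicate 1. The change at 7 days against E21 was −0.02 ± 0.15 (moderated SE, 95% interval −0.33 to 0.29, limma adjusted p = 0.95). The largest change from E21 was at 1 day, −0.36 ± 0.15 (interval −0.67 to −0.05, adjusted p = 0.204), with the 1 day and E21 arrays not overlapping. Over all arrays 99.7% of genes had a lower mean than Igf2, and the highest reading of the table was 19.93.

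Igf2r encodes the receptor that takes IGF2 to the lysosome and so removes it. Its values were 11.73, 13.21 and 13.55 at E21, 12.90, 12.55 and 10.72 at 30 min and 11.52, 10.41 and 11.11 at 4 h. They were 12.11, 11.54 and 11.76 at 12 h, 11.28, 11.18 and 11.84 at 1 day and 11.52, 11.69 and 11.77 at 7 days. E21 replicates 2 and 3 stood above every array from 4 h on, and E21 replicate 1 lay among the later arrays. At 4 h the change against E21 was −1.82 ± 0.51 (interval −2.90 to −0.74, adjusted p = 0.0527), the 2 ages not overlapping, and at 7 days it was −1.17 ± 0.51 (adjusted p = 0.117). Without E21 replicate 1, Igf2r fell by 2.37 at 4 h, by 1.95 at 1 day and by 1.72 at 7 days (adjusted p = 0.0149, 0.0354 and 0.0237). The test was also passed at 4 h without 30 min replicate 1 (−1.82, adjusted p = 0.0459) or replicate 3 (−1.82, 0.0156). Leaving out 30 min replicate 3 also brought the changes at 1 day (−1.40, adjusted p = 0.0492) and 7 days (−1.17, 0.0391) past it. The 30 min arrays belong to neither age compared, so these changes stayed the same. Only the estimate of spread, which all ages share, and the adjustment moved. Without the 3 arrays noted above, Igf2r passed against E21 at 4 h (−2.42, adjusted p = 0.000834), 12 h (−1.58, 0.00756), 1 day (−1.95, 0.00272) and 7 days (−1.72, 0.00133), and at 4 h against 30 min (−1.76, 0.0132).

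Grb10 encodes an adaptor that binds the activated insulin and IGF1 receptors and dampens their signal. It read 16.49, 17.09 and 17.20 at E21, 17.34, 16.70 and 15.73 at 30 min and 16.13, 15.09 and 16.07 at 4 h. It read 16.02, 15.60 and 15.47 at 12 h, 15.47, 15.23 and 15.19 at 1 day and 13.07, 12.86 and 14.13 at 7 days. All 3 arrays of 7 days lay below all 15 others, and all 3 of 1 day lay below all 3 of E21. Grb10 averaged 13.35 ± 0.68 at 7 days and 16.93 ± 0.38 at E21 (SD, n = 3 each), so that it fell by 3.57 ± 0.39 log2, 11.9-fold (limma adjusted p = 1.28e-05). It also fell by 1.94 ± 0.39 at 7 days against 1 day (adjusted p = 0.00274), and no other neighbours in the order of its age means passed the test. The fall of 1.63 at 1 day against E21 (adjusted p = 0.0256) did not pass without E21 replicate 2 or 3 or any 1 of the 1 day arrays, with values of −1.72 to −1.50 and adjusted p of 0.0573 to 0.101. That call was also lost with values set to the floor. Without the 3 arrays noted above, Grb10 passed against E21 at 4 h (−1.54, adjusted p = 0.0349) and 12 h (−1.45, 0.0376).

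Dlk1 encodes a transmembrane ligand related to Delta that lacks the usual Notch-binding domain and marks hepatoblasts in mouse. It read 11.03, 13.05 and 12.13 at E21, 11.88, 10.99 and 10.23 at 30 min and 10.24, 10.09 and 10.98 at 4 h. It read 10.71, 10.49 and 10.75 at 12 h, 9.03, 9.74 and 8.74 at 1 day and 6.43, 7.86 and 7.58 at 7 days. The 1 day arrays lay below every earlier array and the 7 day arrays below every 1 day array. Dlk1 averaged 7.29 ± 0.76 at 7 days and 12.07 ± 1.01 at E21 (SD, n = 3 each), so that it fell by 4.78 ± 0.50 log2, 27.5-fold (limma adjusted p = 7.86e-06). At 1 day it had fallen by 2.90 ± 0.50, 7.47-fold (adjusted p = 0.00403). At 7 days it fell by a further 1.88 ± 0.50 against 1 day (adjusted p = 0.0156), a call that was lost without 1 day replicate 2 (−1.60, adjusted p = 0.0672) or 7 day replicate 1 (−1.45, 0.0758). The changes of −1.64 at 4 h (adjusted p = 0.0769) and −1.42 at 12 h (0.125) against E21 did not pass. Without E21 replicate 1 both passed, at −2.16 (adjusted p = 0.0254) and −1.94 (0.0342), and likewise without the 3 arrays noted above, at −2.43 (0.00725) and −1.94 (0.0179).

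Cdkn1c encodes p57Kip2, an inhibitor of cyclin-dependent kinases that holds cells out of division. It read 10.88, 13.07 and 12.13 at E21, 12.80, 12.64 and 10.73 at 30 min and 11.86, 10.41 and 11.24 at 4 h. It read 10.73, 10.15 and 10.88 at 12 h, 8.23, 8.52 and 7.50 at 1 day and 8.07, 8.14 and 8.25 at 7 days. The 12 arrays up to 12 h lay at or above 10.15, and the 6 arrays of 1 day and 7 days at or below 8.52. Cdkn1c averaged 8.08 ± 0.52 at 1 day and 12.03 ± 1.10 at E21 (SD, n = 3 each), so that it fell by 3.94 ± 0.56 log2, 15.4-fold (limma adjusted p = 0.000954). At 7 days it fell by 3.88 ± 0.56 against E21 (14.7-fold, adjusted p = 0.000138), and 7 days against 1 day differed by 0.07 ± 0.56 (interval −1.12 to 1.26, adjusted p = 0.963). The step between 12 h and 1 day was −2.50 ± 0.56, with no overlap, and did not pass (adjusted p = 0.198). In that comparison none of the 9 genes and 0.037% of all genes passed. Under an unadjusted p of 0.05 were 2 of the 9, Dlk1 and Cdkn1c, and 1213 of all 18926 genes. Without the 3 arrays noted above the step passed (−2.50, adjusted p = 0.0419), as did 12 h against E21 (−2.01, 0.012). None of the 3 is an array of 12 h or 1 day, so the step itself stayed the same. Only the estimate of spread, which all ages share, and the adjustment changed. The change at 7 days against 12 h passed with all arrays (−2.44, adjusted p = 0.00629), as 18.9% of all genes did.

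In the comparison of 7 days with E21, 4 of the 9 genes fell (Dlk1, Cdkn1c, Grb10 and Peg3), 5 did not pass and none rose, where 22.8% of all genes passed and 10% passed as lower. The median change of the 9 was −0.81, and that of all genes 0.01. Without 7 day replicate 3, Dlk1 fell by 4.93, Cdkn1c by 3.92 and Grb10 by 3.96 (adjusted p = 4.62e-05, 0.00072 and 1.26e-05). At 1 day against E21, 3 fell and Peg3 rose, where 5.08% of all genes passed, 1.71% as lower and 3.37% as higher. At 30 min against E21 none of the 9 passed limma's test, as none of all genes did (0%), while 2 of the 9 (Peg10 and Mest) and 1392 of all genes had an unadjusted p under 0.05. At 7 days against 1 day, 3 fell (Dlk1, Grb10 and Peg3), where 18.2% of all genes passed and 10% as lower. None passed at 4 h against 30 min, where 0.983% of all genes did. There 1 of the 9, Igf2, and 2146 of all 18926 genes had an unadjusted p under 0.05.

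**Figure D2:**
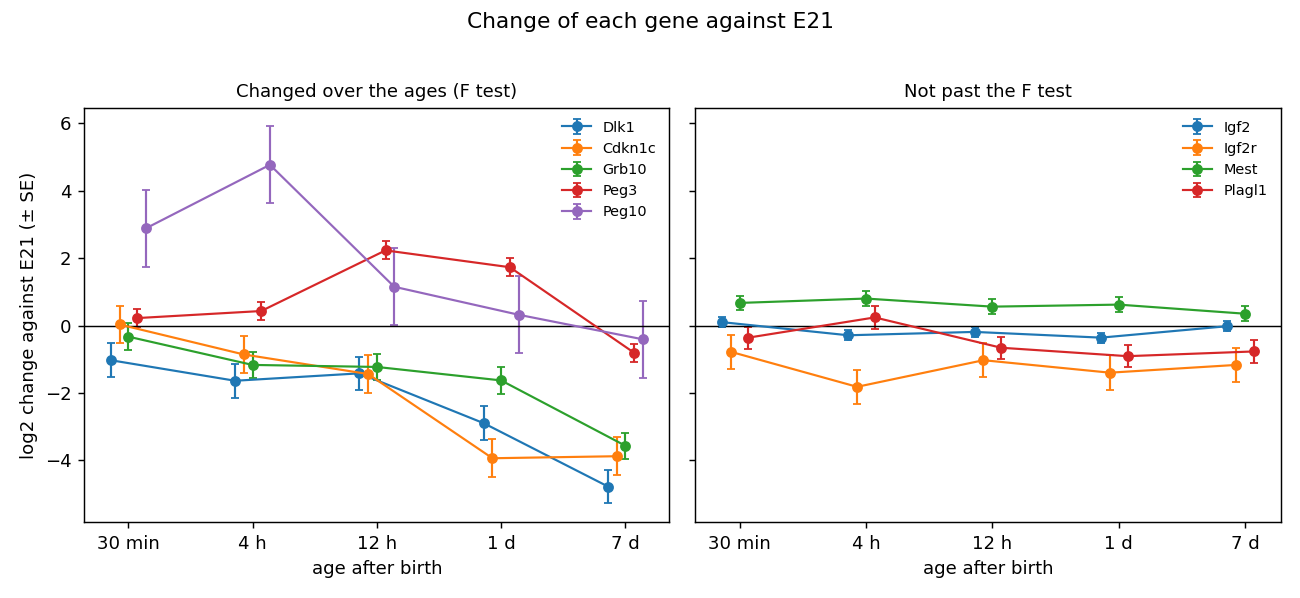
Log2 change of each imprinted growth gene at 5 ages after birth against E21, as fitted by limma over 18 arrays (points, joined by lines, with bars for ± 1 SE), with the genes past the F test on the left and the others on the right. At 7 days Dlk1 (−4.78), Cdkn1c (−3.88) and Grb10 (−3.57) lie lowest, and Igf2 lies at −0.02.

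The liver around birth is still a blood-forming organ in rodents, and the fall of the 3 genes was set beside the markers of other cells. In a bulk tissue, fewer cells of a type and less RNA per cell cannot be told apart. All 19 erythroid markers fell at 7 days against E21 (median −4.49), as did all 10 platelet markers (median −2.06) and 9 of 13 neutrophil markers (median −2.69). The summed intensity of the 19 erythroid markers was 15022 to 34114 at 7 days and 279834 to 480410 at E21, and at 7 days Tal1 and Epor lay at or below the floor. At 1 day none of the 19 erythroid markers passed against E21 (median −0.03), and their sum was 325603 to 406996. None of them was under an unadjusted p of 0.05 either, where 3331 of all 18926 genes were. Of the 10 platelet markers 1 had fallen at 1 day (median −0.93), and their sums were 33915 to 47913 at E21, 18826 to 23768 at 1 day and 4031 to 4291 at 7 days. At 7 days Gp9, Gp1ba, Gp5 and Gp6 of the platelet list lay at or below the floor. The neutrophil sum was 17340 to 53839 at 7 days and 84213 to 208946 at E21, with Ctsg at or below the floor at 7 days and Ltf at or below it at every age. The part of blood cells in the falls of Dlk1, Cdkn1c and Grb10 was not tested.

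Markers of the cells that line and support the liver moved the other way at 7 days. Against E21, 11 of 15 macrophage markers rose and 1 fell, 10 of 13 endothelial markers rose and 1 fell, and 8 of 16 stellate and mesenchymal markers rose (medians 1.37, 1.19 and 1.00). Their summed intensities at 7 days and at E21 were 55837 to 82527 and 23349 to 28873 for macrophages, 73121 to 87316 and 24491 to 35882 for endothelium, and 128931 to 191003 and 44534 to 58003 for the stellate list. Much of the stellate sum was 1 gene, Bgn, with means of 16.91 at 7 days and 15.10 at E21. The stellate median was highest on 7 day replicate 3, the array with pancreas RNA (1.55, against 0.56 and 1.17). Of 11 hepatoblast and fetal hepatocyte markers 3 rose and 3 fell (median −0.01). Among the 4 largest changes, Anpep (2.28 ± 0.26, limma adjusted p = 1.99e-05) and Cdh1 (1.84 ± 0.33, 0.000774) rose. Prom1 (−1.58 ± 0.22, adjusted p = 8.44e-05) and Gpc3, a cell-surface proteoglycan of fetal liver, fell. Gpc3 read 10.52, 9.05 and 10.84 at 7 days, against 14.97, 15.46 and 15.54 at E21, and fell by 5.19 ± 0.53 (adjusted p = 5.94e-06). It read 14.75, 13.96 and 13.50 at 1 day, when the change against E21 did not pass. Of 14 mature hepatocyte markers 3 rose and 4 fell.

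**Figure D3:**
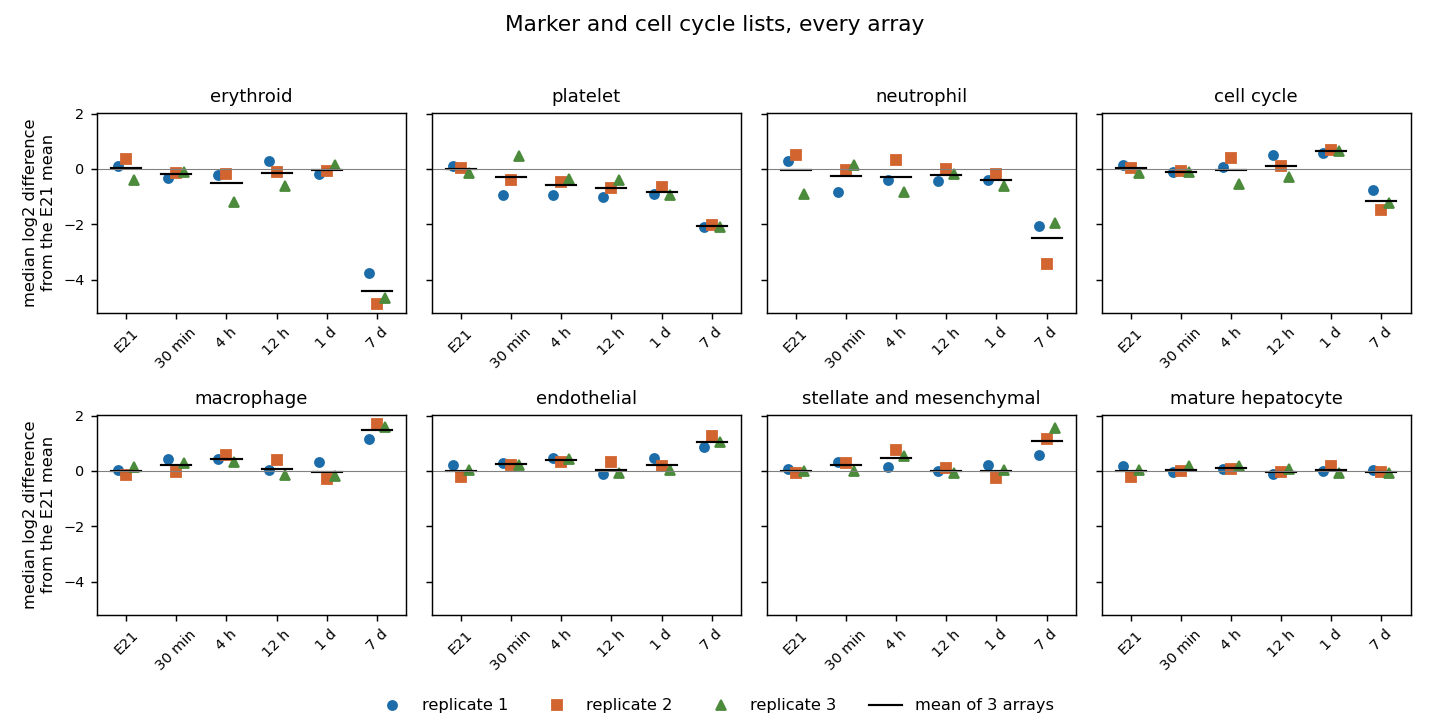
Median log2 difference from the E21 mean over the genes of 7 marker lists and the cell cycle list, for each of the 18 arrays (coloured points) by age, with the mean of 3 arrays as a black line. The erythroid list lies between −4.86 and −3.76 at 7 days and between −0.18 and 0.16 at 1 day, and the cell cycle list between −1.47 and −0.77 at 7 days.

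Peg3 encodes a zinc finger protein expressed from the paternal copy in mouse. It read 12.29, 12.52 and 11.66 at E21, 12.76, 11.80 and 12.58 at 30 min and 12.91, 12.39 and 12.45 at 4 h. It read 14.27, 14.18 and 14.70 at 12 h, 13.75, 13.83 and 14.07 at 1 day and 11.23, 11.06 and 11.76 at 7 days. All 6 arrays of 12 h and 1 day stood above all 12 others, with no array of its age set apart. Peg3 averaged 14.38 ± 0.27 at 12 h and 12.16 ± 0.44 at E21 (SD, n = 3 each), so that it rose by 2.23 ± 0.27 log2, 4.68-fold (limma adjusted p = 0.000198). It was the only member past the test at 12 h against E21, where 5.94% of all genes passed and 3.86% as higher. It was also the only member past it at 12 h against 4 h (1.80 ± 0.27, adjusted p = 0.000654), where 8.9% passed and 5.08% as higher. At 1 day it was higher than at E21 by 1.73 ± 0.27 (3.31-fold, adjusted p = 0.00196).

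The high level of Peg3 had ended by 7 days, when it fell by 2.53 ± 0.27 against 1 day (5.79-fold, adjusted p = 1.7e-05). The 1 day arrays (13.75 to 14.07) lay below those of 12 h (14.18 to 14.70), with no overlap. The change at 1 day against 12 h was −0.50 ± 0.27 (interval −1.07 to 0.07) and did not pass (limma adjusted p = 0.843), where 0.037% of all genes passed. At 7 days Peg3 also fell by 0.81 ± 0.27 against E21 (1.75-fold, adjusted p = 0.0412), with 1 array of each age overlapping. That call was lost without E21 replicate 1 or 2, 12 h replicate 1, 1 day replicate 2, or 7 day replicate 1 or 2, with values of −0.81 to −0.63 and adjusted p of 0.0509 to 0.172. It was also lost without the 3 arrays noted above (−0.74, adjusted p = 0.142), with values set to the floor (−0.81, 0.0769) and with only the 2 ages fitted (−0.81, 0.078).

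Of the 4 measured genes nearest Peg3, Apeg3 and Zim1 were also highest at 12 h, and Usp29 and Znf773 did not pass the F test over ages. Apeg3, transcribed antisense to Peg3, read 6.81, 7.46 and 5.99 at E21 and 6.91, 7.12 and 7.09 at 4 h. It read 8.60, 8.58 and 8.74 at 12 h, 7.85, 7.54 and 8.18 at 1 day and 6.18, 6.26 and 6.16 at 7 days. It rose by 1.89 ± 0.29 at 12 h against E21 (at least 1.85 with readings set to the floor, adjusted p = 0.00111) and fell by 1.65 at 7 days against 1 day (0.000901). Whether the probes separate Peg3 from its antisense RNA was not tested.

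Zim1, a zinc finger gene of the same imprinted domain, read 8.23, 7.68 and 7.81 at 12 h, against 6.58, 7.00 and 6.35 at E21. It rose by 1.26 ± 0.26 at 12 h against E21 (adjusted p = 0.00844), and fell by 1.25 ± 0.26 at 7 days against 1 day (at least 1.12 with readings set to the floor, adjusted p = 0.00297). Its 12 h arrays did not overlap those of E21. Usp29, on the other side of Peg3, read 4.49 to 4.87 over the 18 arrays, below the floor (F test adjusted p = 0.988), and so did Znf773, at 3.10 to 4.00 (0.954).

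**Figure D4:**
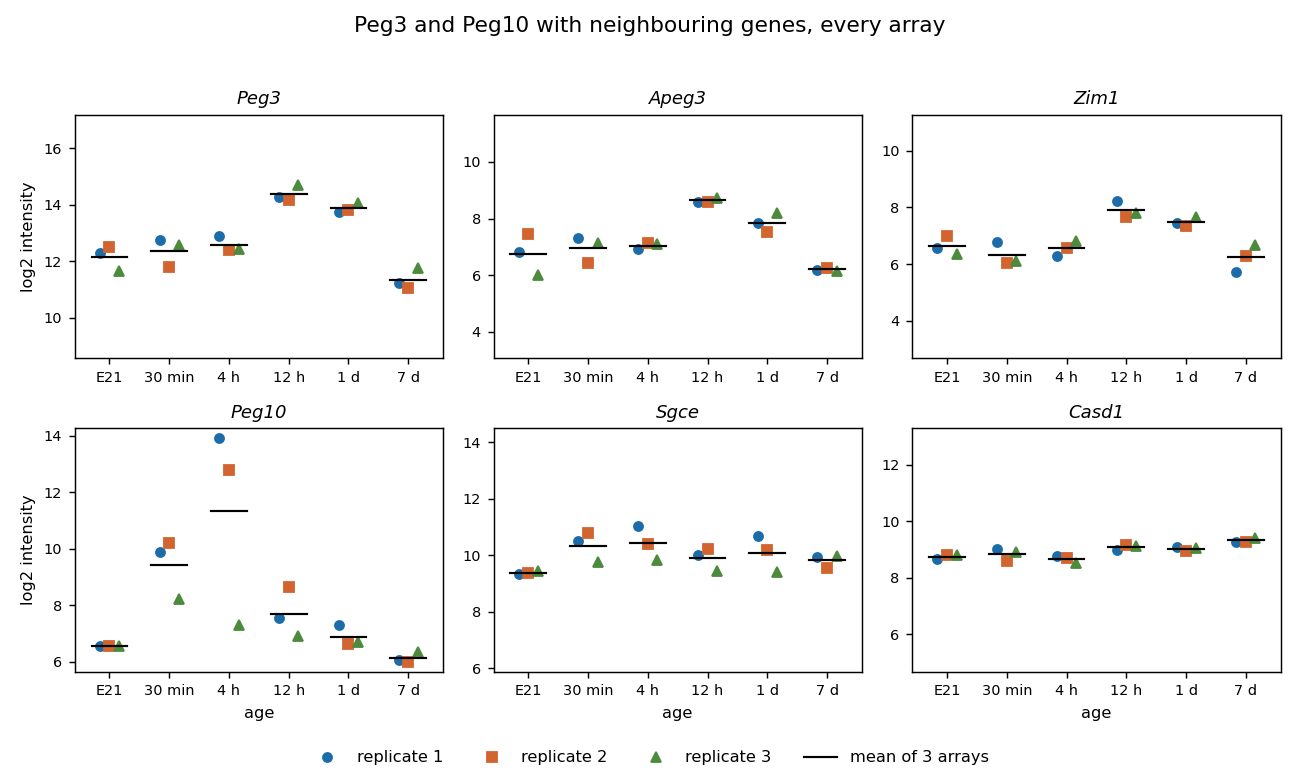
Log2 intensity on each of the 18 arrays, by age, of Peg3 and Peg10 and of genes beside them in the genome (coloured points), with age means as black lines, each panel with its own level but the same span. Apeg3 and Zim1 are highest at 12 h, like Peg3, and Sgce reads 9.84 to 11.03 at 4 h against 9.34 to 9.44 at E21.

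Peg10 encodes a protein derived from a retrotransposon and needed for the placenta in mouse. It read 6.56, 6.56 and 6.55 at E21, 9.89, 10.20 and 8.21 at 30 min and 13.91, 12.77 and 7.30 at 4 h. It read 7.55, 8.64 and 6.93 at 12 h, 7.30, 6.63 and 6.71 at 1 day and 6.08, 6 and 6.37 at 7 days. All 3 arrays of 30 min and of 4 h stood above all 3 of E21, 4 h replicates 1 and 2 stood above every other array, and 4 h replicate 3 lay below the 30 min arrays. The E21 level was near the floor, with 2.63% of silent readings above 6.56, and 2 of the 3 readings at 7 days were at or below the floor. Those silent readings had a median of 4.58 and included Krt10 (mean 6.68 at E21) and Ctrb1 (17.80 on 7 day replicate 3).

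Peg10 averaged 11.33 ± 3.53 at 4 h and 6.56 ± 0.00 at E21 (SD, n = 3 each), a rise of 4.77 ± 1.14 log2 (27.3-fold, interval 2.35 to 7.19, limma adjusted p = 0.0268). It was the 1 member past the test at 4 h against E21, where 4.71% of all genes passed and 2.91% as higher. The call was lost when any 1 E21 array was left out (4.77, adjusted p = 0.0578 to 0.0937), or 4 h replicate 1 (3.48, 0.126) or replicate 2 (4.05, 0.137). It was also lost with values set to the floor, with only the 2 ages fitted, and with the replicate number as a block in the pairwise fit (4.77, adjusted p = 0.172). Without 4 h replicate 3 the change was 6.78 ± 0.54 (adjusted p = 7.63e-06). At 30 min against E21 it was 2.88 ± 1.14 and did not pass (adjusted p = 0.569), although the ages did not overlap, as they did not for 13.7% of all genes. Without the 3 arrays noted above the change at 30 min passed (3.49 ± 0.46, adjusted p = 0.038), and so did that at 4 h against 30 min (3.29, 0.00244).

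The fall of Peg10 after 4 h passed at 7 days with any 1 array left out. At 7 days it fell by 5.18 ± 1.14 against 4 h (at least 5.13, adjusted p = 0.00303), a comparison in which 6 of the 9 genes passed as lower, where 27.2% of all genes passed and 12.7% as lower. With only the 2 ages fitted that call was lost (adjusted p = 0.0587). At 1 day Peg10 fell by 4.45 against 4 h (adjusted p = 0.0207), with the ages overlapping. The 1 day call was lost without 4 h replicate 1 or 2, without any 1 array of 1 day and with only the 2 ages fitted (adjusted p up to 0.181). Peg10 did not pass at 12 h against 4 h (−3.62, adjusted p = 0.0624), but did without 4 h replicate 3 (−5.63, 1.67e-05) and without the 3 arrays noted above (−5.63, 6.85e-06). Sgce, the gene beside it that shares its imprinted promoter region in mouse, read 11.03, 10.40 and 9.84 at 4 h, against 9.34, 9.39 and 9.44 at E21. No Sgce array of 4 h overlapped E21, and the change of 1.04 ± 0.34 did not pass (adjusted p = 0.0998).

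The array on which Peg10 was low at 4 h also differed in genes of the hormonal response to fasting and of early transcription. The medians over 8 genes induced by fasting and cAMP were 3.89, 3.89 and 1.67 on 4 h replicates 1, 2 and 3, as log2 deviation from E21. Over 17 immediate early genes they were 1.47, 0.92 and 0.44 on the same arrays. At 30 min the order differed, since replicate 3 was the highest for both lists (2.78 and 1.91) and the lowest for Peg10. These 2 lists were chosen after values were seen, and their part in the Peg10 level was not tested.

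Mest encodes a protein of the alpha/beta hydrolase fold. It read 14.95, 15.07 and 15.55 at E21, 16.06, 15.77 and 15.76 at 30 min and 16.02, 16.20 and 15.74 at 4 h. It read 15.94, 16.06 and 15.26 at 12 h, 16.13, 15.58 and 15.71 at 1 day and 15.32, 15.56 and 15.75 at 7 days. The 3 arrays of each of 30 min, 4 h and 1 day stood above the 3 of E21, while 12 h and 7 days overlapped E21. The change at 4 h against E21 was 0.80 ± 0.22 (1.74-fold, interval 0.33 to 1.26, adjusted p = 0.0502). It passed without E21 replicate 3 (0.98, adjusted p = 0.0373), 4 h replicate 3 (0.92, 0.0325), 12 h replicate 3 (0.80, 0.027) or 1 day replicate 1 (0.80, 0.0455). The 12 h and 1 day arrays belong to neither age compared, so without them only the estimate of spread and the adjustment moved. At 7 days it was 0.35 ± 0.22 (interval −0.11 to 0.82, adjusted p = 0.303).

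Plagl1 encodes a zinc finger transcription factor that regulates other imprinted genes in mouse. It read 8.79, 9.68 and 8.73 at E21, 8.89, 8.83 and 8.40 at 30 min and 8.81, 9.33 and 9.78 at 4 h. It read 8.63, 8.30 and 8.29 at 12 h, 7.62, 8.39 and 8.48 at 1 day and 7.70, 8.34 and 8.87 at 7 days. The 12 h and 1 day arrays lay below all E21 arrays, and the 7 day arrays overlapped them. No change against E21 passed, the largest being −0.91 ± 0.33 at 1 day (interval −1.61 to −0.20, adjusted p = 0.148). At 7 days it was −0.77 ± 0.33 (adjusted p = 0.119), which passed without 7 day replicate 3, the array with pancreas RNA (−1.05, 0.0474).

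Against 4 h, where it was highest, Plagl1 fell by 1.15 ± 0.33 at 1 day (2.22-fold, limma adjusted p = 0.0378) and by 1.01 ± 0.33 at 7 days (2.01-fold, 0.0337). The 4 h and 1 day arrays did not overlap, and 7 day replicate 3 lay among those of 4 h. At 1 day against 4 h, 4 of the 9 genes passed, where 10.8% of all genes did. The 1 day call was lost without 4 h replicate 2 (−1.14, adjusted p = 0.0939) or 3 (−0.91, 0.133), or 1 day replicate 1 (−0.88, 0.167) or 2 (−1.26, 0.0537). The 7 day call was lost without 4 h replicate 2 (adjusted p = 0.0829) or 3 (−0.77, 0.134), or 7 day replicate 1 (−0.71, 0.161) or 2 (−1.03, 0.0733). Both were lost without the 3 arrays noted above (adjusted p = 0.141 at 1 day and 0.142 at 7 days), with values set to the floor (0.076 and 0.0666), with array weights (0.0501 and 0.0612) and with only the 2 ages fitted (0.103 and 0.0849).

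Other imprinted genes and genes of the same pathways were counted at 7 days against E21. Of 51 other imprinted genes measured (65 listed), 10 rose, 3 fell and 38 did not pass, where 22.8% of all genes passed, and their median change was 0.06. Of the 51, 26 at E21 and 28 at 7 days lay at or below the floor on every array of that age, where a change could hardly be read. Cobl, which lies beside Grb10, rose by 1.33 ± 0.23 (7.81 at 7 days and 6.48 at E21, adjusted p = 0.000648), so it went the other way from Grb10. Ddc, on the other side of Grb10, did not pass at 7 days (0.37, adjusted p = 0.272). Against E21 Ddc fell at 4 h, 12 h and 1 day (−0.93, −1.07 and −1.08, adjusted p = 0.0231, 0.00764 and 0.00934). Of the next genes out, Fignl1 fell at 7 days (−0.39, adjusted p = 0.0379) and Pom121l12 did not pass the F test (0.734). Slc22a18, beside Cdkn1c, rose by 0.96 ± 0.25 (adjusted p = 0.0113), a call lost without E21 replicate 2 or 7 day replicate 1, with adjusted p up to 0.0605. Cd81, a tetraspanin, rose by 1.24 ± 0.18 (adjusted p = 0.000172). Htr2a was called lower, with means of 4.90 at 7 days and 5.94 at E21 that both lay below the floor.

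Of 29 genes of the IGF and insulin pathway outside the 9 (30 listed), 9 rose, 3 fell and 17 did not pass at 7 days against E21 (median 0.29). Igf1, the postnatal growth factor of the liver, read 15.89, 16.46 and 16.09 at 7 days, against 13.63, 13.32 and 13.86 at E21. It rose by 2.54 ± 0.42 (5.84-fold, adjusted p = 0.000459), with no overlap of the ages, where the Igf2 readings overlapped. Igfals, which binds IGFs in a ternary complex in blood, rose by 3.82 ± 0.65 (adjusted p = 0.000518), and Igfbp4, an IGF-binding protein, by 3.83 ± 0.74 (0.00139). Irs2, an adaptor of the insulin receptor, fell by 2.63 ± 0.56 (adjusted p = 0.00282).

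Of 15 genes of the Notch pathway (receptors, ligands, targets and Dlk2, but not Dlk1) 5 rose, none fell and 10 did not pass at 7 days against E21 (median 0.36), among them Hes1, a Notch target (1.68 ± 0.34, adjusted p = 0.0022), and the ligand Dll1 (at least 1.09, 6.15e-07). The other named genes of that list, Hey1 and Heyl, lay near or below the floor. Of 19 CDK inhibitors, G1 cyclins, CDKs, Rb family genes and E2F factors (20 listed) 1 rose and 9 fell (median −0.46). The riser was Ccnd1, cyclin D1 (3.62 ± 0.30, adjusted p = 1.16e-06), and the deepest falls were those of the cell cycle transcription factor E2f2 (−3.04 ± 0.33), the retinoblastoma gene Rb1 (−2.49 ± 0.25) and the kinase gene Cdk6 (−1.67 ± 0.13). Of 20 cell cycle genes 15 fell at 7 days (median −1.14), while at 1 day against E21 1 of 20 rose and none fell (median 0.64), where 5.08% of all genes passed.

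Among the nearest 2 measured genes on either side of each of the 9, in GRCr8 order, 13 of 36 passed the F test over all ages and 23 did not, beside 31.3% of all genes. Of the 4 next to Dlk1, Begain alone passed (adjusted p = 0.0393), with age means of 5.22 at 7 days and 5.50 at E21 that lay below the floor. Phlda2 and Kcnq1, near Cdkn1c, read below the floor at both ages (4.89 and 5.30 at 7 days, 4.84 and 5.23 at E21) and did not pass. The choice of neighbours was made after member values were seen.

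Arrays of an age share that age, and the labels do not say whether they shared processing, so likeness is a description only. The genes whose levels ran most like each member over the 18 arrays were named from 10003 genes by Pearson's r. For Dlk1 they were Gsn (0.958), Fer1l5 (0.936) and Rbp2 (0.932), and for Cdkn1c Tnni1 (0.947), Hdc (0.945) and Rbp2 (0.919). For Grb10 they were Nt5dc2 (0.945), Tmsb10 (0.939) and Gsn (0.937), so that Gsn, which encodes the actin-severing protein gelsolin, and Rbp2, a retinol-binding protein, each appeared for 2 members. Gsn read 8.19, 8.33 and 8.75 at 7 days, against 14.61, 15.62 and 14.59 at E21, and fell by 6.51 ± 0.51 (adjusted p = 7.28e-07). For Peg3 the first was Apeg3 (0.953), followed by Zim1 (0.889) and Psme3 (0.883), and for Peg10 Zfyve27 (0.909), Zfp263 (0.907) and Paxip1 (0.899). The highest r was 0.813 for Igf2 (Snx14), 0.812 for Igf2r (Pdia5), 0.842 for Mest (Wfdc21) and 0.766 for Plagl1 (Ptn).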

How the data were processed

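Liver RNA had been hybridised to 18 arrays, and what the authors deposited is 1 intensity per transcript cluster and array, per the file headers. RMA and Affymetrix Expression Console 1.0 are named by the submitters' processing notes, without their order. The intensities were linear (4.24 to 999969, array medians 61.9 to 65.5), although log2 values had been planned for, so log2 was taken with no added constant or further normalization. Of 24753 features, 19837 had 1 symbol, 420 several and 4496 none, and only the first kind was tested. The brightest feature was kept for 800 genes with several, leaving 18926.

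One limma 3.58.1 model (R 4.3.3) of 18 arrays gave every gene 6 age means, with eBayes on 12 residual and 3.05 prior degrees of freedom. All 15 pairs of ages and the F test over ages were adjusted by Benjamini-Hochberg over 18926 genes, with calls at 0.05 and two-sided tests. The fit was tested on simulated data. "At least" sets readings under the floor of 6.12 to it. In the other imprinted, IGF and insulin, Notch, CDK and hepatoblast lists, the 4 largest changes past the test at 7 days against E21 were named. The other lists were given as counts, medians or sums, with genes named only for the floor or for single arrays. For likeness the 3 highest correlations of Dlk1, Cdkn1c, Grb10, Peg3 and Peg10 were named, and the highest of the other members. Members and lists were chosen with earlier results of these data known. Alternatives were other scalings, filters, floors, weights, ages, blocks and arrays left out. No column went unmapped, and 3 arrays per age limit the precision.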

Additional observations from a re-analysis of the deposited data

How the results depend on the processing

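Of 14 calls among the 9 genes in 9 comparisons, other scalings, filters, floors, weights, fits of fewer ages and the replicate block over all 18 arrays kept 135 of 140 values and lost 5, and leaving out each array in turn kept 234 of 252 and lost 18. None was reversed. The pairwise replicate block, chosen after seeing the data, is not among these values and lost Peg10 at 4 h against E21 (adjusted p = 0.172). No member passed without any 1 array at 30 min against E21 or at 1 day against 12 h. The array left out moved the number of members past the test from 0 to 2 at 4 h against E21 (1 with all arrays), 1 to 2 at 12 h against E21 (1), 3 to 5 at 1 day (4) and at 7 days against E21 (4), 0 to 1 at 4 h against 30 min (0), 1 to 2 at 12 h against 4 h (1), 2 to 4 at 7 days against 1 day (3) and 4 to 7 over all ages (5). The number of all genes past it moved too, from 274 to 1371 at 4 h against E21 (892 with all arrays). Over all ages it moved from 4539 to 5999 (5931).

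At 4 h against E21 the count of 1 became 3 with quantile normalization or only genes above the median level, 2 with median centring, 5 with array weights and 0 with values set to the floor or only the 2 ages fitted. With array weights it was 4 at 12 h against E21, 1 at 4 h against 30 min, 2 at 12 h against 4 h and 8 over all ages. With only the 2 ages fitted it was 2 at 12 h against E21, and with only genes above the median level it was 2 at 12 h against 4 h. Among all genes 892 passed at 4 h against E21 in the main fit. That number was 1073 with quantile normalization, 984 with only genes above the median level and 950 with median centring. Array weights gave 1181 of all genes in place of 186 at 4 h against 30 min, and 8077 in place of 5931 over all ages. The 3 arrays that stand apart (E21 replicate 1, 30 min replicate 3 and 4 h replicate 3) were also left out, an alternative chosen after seeing the data. Members past the test were then 1 at 30 min, 4 at 4 h and 5 at 12 h against E21. They were 2 at 4 h against 30 min, 2 at 12 h against 4 h and 1 at 1 day against 12 h. Without these arrays the numbers of all genes against E21 were 3 in place of 0 at 30 min and 1467 in place of 892 at 4 h. At 12 h against E21 1111 passed in place of 1124, and at 4 h against 30 min 445 in place of 186. At 12 h against 4 h 1865 passed in place of 1684, and at 1 day against 12 h 9 in place of 7. The cause of these shifts was not tested.

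Same-numbered arrays deviated together, every pair over 0.1, in 3 of 15 pairs of ages (0.107 to 0.292 between 4 h and E21), and nothing in the labels says that a number marks shared animals. With all 18 arrays and the replicate block, 2 members passed at 12 h against 4 h, Peg10 being added (−3.62, adjusted p = 0.0433), and with a pairwise replicate block none passed at 4 h against E21, where 2 genes of all passed in place of 892. Over all genes the count at 4 h against E21 was 139 with only the 2 ages fitted, 520 with values set to the floor and 2244 with array weights. It was 2217 in place of 1124 at 12 h against E21 and 3888 in place of 1684 at 12 h against 4 h with array weights, and 1080 at 12 h against 4 h and 297 in place of 961 at 1 day against E21 with only the 2 ages fitted. With 3 arrays per age and Peg10 near the floor at E21 and 7 days, its folds there are the least certain.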
